A study of Danio rerio with 36 samples.

Results

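The change in gene expression between the 6-somites stage and the Prim-5 stage was measured in zebrafish embryos (Danio rerio) held at the lower concentrations of MTBE (methyl tert-butyl ether), which is used as an additive in petrol. The members are 12 of the 36 arrays of the series, taken by their labelled stage and dose. These doses were picked with earlier results known, as ones with almost no dose effect and no array poor in yolk transcripts. They are 6 arrays of Prim-5 embryos, about 30 hours post fertilization (hpf), and 6 arrays of 6-somites embryos, about 15 hpf. In each set, 3 arrays came from embryos in 0.00625 mM MTBE and 3 from embryos in 0.625 mM, which the labels give as the dose with no observed adverse effect. The other arrays were controls in embryo medium, embryos at 5 mM, and all doses at 21-somites, about 24 hpf.

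Every sample was a lysate of 15 pooled whole embryos of the line Tg(fli1a:EGFP)y1, in which the fli1a promoter drives a green fluorescent protein mainly in blood vessel cells. All groups, controls included, carried this transgene and were kept at 25 °C in sealed glass vials from about 3 hpf until collection. Time in the vial, and in MTBE for the dosed embryos, was therefore longer at the later stage. In the low-dose arrays neither can be told apart from development. Levels are on a log2 scale, so a difference of 1 is a 2-fold difference, and 15502 probe sets were compared. Where a gene had several probe sets, the brightest was used, which gave 8793 genes.

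At 6 somites a zebrafish embryo is laying down the first blocks of trunk muscle from an unsegmented tailbud, and its nervous system is a thickened plate and keel. By Prim-5 segmentation has ended, the trunk muscle twitches, the heart beats, blood circulates and the first neurons have extended axons. Patterning genes of the gastrula and tailbud are known to be transient, while genes of contraction, oxygen transport and synaptic signalling are known to come on as cells differentiate.

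Stage was the main axis of variation among the 12 arrays. Principal components 1 and 2 accounted for 79.5% and 4.1% of the variance. Arrays of different stages correlated between 0.9329 and 0.9481, arrays of the same stage and dose between 0.9885 and 0.9952, and arrays of the same stage but different dose between 0.9881 and 0.9952. The stages and doses were picked, the doses for having almost no dose effect, so these values are a description. The number of identical pairs of arrays was 0. The mean log2 level of the yolk and lipid carrier genes was 5.53 to 5.81 in the 6-somites arrays and 6.70 to 6.91 in the Prim-5 arrays, in sets picked to hold no yolk-poor array. One control array at 6-somites, used only for comparison, had a mean of 4.85 for these genes.

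Of the 15502 probe sets, 8361 passed the test between stages (limma, Benjamini-Hochberg adjusted p under 0.05), which is 53.9% of those tested. Higher levels at Prim-5 were called for 3318 (21.4%) and lower levels for 5043 (32.5%). Among changes of over 2-fold the balance was the other way, with 831 higher (5.36%) and 354 lower (2.28%). Adding 50 on the linear scale, which shrinks the changes of dim probe sets, left 161 and 38 of them. List medians shrank too, from 3.48 to 2.05 for the fast muscle sarcomere and from 1.76 to 0.39 for muscle calcium and energy handling. They went from 0.95 to 0.19 for neurons, from 1.51 to 0.33 for red cells and from 1.14 to 0.13 for notochord and cartilage matrix. Falls shrank as well, from -1.13 to -0.3 for segmentation and tailbud and from -0.94 to -0.17 for dorsoventral and gastrula patterning. The 6 arrays of one stage did not overlap the 6 of the other for 4801 probe sets (31%). The median standard error of a change was 0.098 and the median change -0.095. Of the 8793 genes, 23.6% were called higher and 34.7% lower, and the counts of each gene list below are to be read against these shares. The lists were chosen with earlier results of these data known, so their counts and ranks are a description.

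The split between higher and lower calls depended on the scaling of the arrays. Cyclic loess normalization gave 4071 higher and 3762 lower, so that 52% of the calls were higher against 39.7% as deposited, while quantile normalization gave 3351 and 4915. The control probe set for AsRed2, a red fluorescent protein that the line is not described as carrying, fell from 3.26 ± 0.19 to 2.74 ± 0.28 (SD, n = 6 arrays per stage; exact two-sided permutation test, p = 0.00866). That for DsRed1 fell from 2.41 ± 0.28 to 2.00 ± 0.11 (exact permutation test, n = 6, p = 0.0108). Whether this drop at the dim end bears on the number of falls was not tested.

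These AsRed2 levels, 3.26 at 6-somites and 2.74 at Prim-5, served as the background of each stage, with 3.12 at 21-somites. Both stage means were under it for 5739 probe sets, of which 612 were called higher and 1566 lower. Where only the dimmer stage was under it, the difference is printed as a lower bound if one was obtained. Such a bound reads "at least" so many fold and was taken against the background of each array. For some of these genes, among them pvalb4 and tie1, there was none. Genes without such a bound are given by their fitted change. In some of them the dimmer mean lay close to background, which limits how well the size is measured. Prim-5 means were 2.75 for vox and 2.79 for chrd and her7. At 6-somites the means were 3.26 for c9 and 3.28 for col1a2. The dimmer stage was under background, alone or together with the brighter stage, for 320 of the 743 genes that changed by over 2-fold. The probe set for EGFP itself measured 2.94 ± 0.29 at 6-somites and 2.54 ± 0.15 at Prim-5 (SD, n = 6; exact two-sided permutation test, p = 0.0195). These means were below the AsRed2 background at both stages but above the DsRed1 means of 2.41 and 2.00. Whether EGFP was measured thus depended on the control probe set chosen, and the transgene gave no check of the labels. AsRed2 was the brighter of these red controls, so genes given as under background may still lie above DsRed1.

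**Figure D1:**
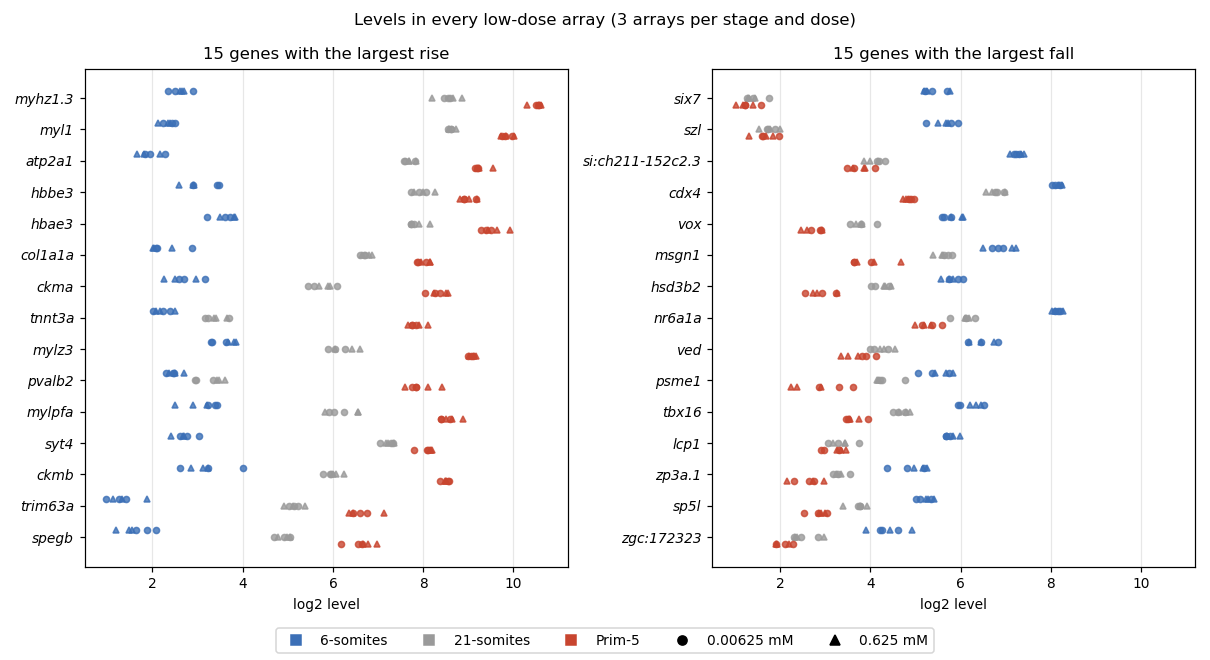
Log2 level (horizontal axis) of the 15 genes with the largest fitted rise and the 15 with the largest fitted fall, 1 point per array, with circles for 0.00625 mM and triangles for 0.625 mM. The 6 Prim-5 arrays lie clear of the 6 6-somites arrays in all 30 genes because that was required for a gene to be shown, while the position of the 21-somites arrays differs from gene to gene.

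Genes of fast skeletal muscle rose together. All 17 genes of the fast muscle sarcomere list were higher at Prim-5, 16 of them by over 2-fold, with a median change of 3.48, beside a median of -0.095 over all genes. The named gene with the largest fitted change was myhz1.3, a fast myosin heavy chain. Its log2 level ran from 2.34 to 2.90 (median 2.63) in the 6-somites arrays and from 10.29 to 10.60 (median 10.56) in the Prim-5 arrays. That is at least 153-fold higher (fitted change 7.90 ± 0.10 SE, adjusted p = 2.67e-24). The 2 sets of arrays were far apart and each was tight. In whole embryos, fewer cells of a type and less RNA per cell cannot be told apart, for this and all genes below.

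The essential light chain gene myl1 went from 2.13 to 2.49 (median 2.37) up to 9.72 to 10.02 (median 9.83), at least 96.7-fold higher. Another light chain gene, mylz3, was above background at both stages and rose from a median of 3.66 (3.29 to 3.84) to 9.08 (9.0 to 9.17), a change of 5.49 ± 0.09 (adjusted p = 9.93e-22). Of the thin filament genes, tnnt3a (troponin T) and tnni2a.4 (troponin I) were at least 23.9-fold and 18.8-fold higher, and tpma (tropomyosin), above background at both stages, rose by 4.40 ± 0.09. The smallest fitted change in the list was that of mybpc2b, a myosin binding protein, at 0.82 ± 0.09, whose arrays still did not overlap. No array of one stage reached the other in any of the 17 genes, as was so for 31% of all probe sets.

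Skeletal muscle actin, actc1b, started from a higher level than these. It measured 5.65 to 6.06 (median 5.89) at 6-somites and 10.25 to 10.50 (median 10.40) at Prim-5, a change of 4.51 ± 0.09. Its 4 probe sets disagreed: a second bright one rose by 4.64, while 2 dimmer ones fell by 1.75 and 1.28. Slow muscle was also already measured at 6-somites, when its myosin gene smyhc1 stood at 7.42 to 7.80 (median 7.68), and it rose to 9.97 to 10.35 (median 10.26). Of the 3 slow muscle genes on the array, smyhc1 and myl10 rose, by 2.55 ± 0.09 and 2.33 ± 0.10, and tpm3 did not pass the test.

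Genes that handle calcium and energy in muscle rose as well, 13 of 15, with 1 lower and a median of 1.76. The calcium pump of the sarcoplasmic reticulum, atp2a1, was at 1.66 to 2.27 (median 1.88) at 6-somites and 9.14 to 9.54 (median 9.20) at Prim-5, at least 63.8-fold higher. The creatine kinases ckma and ckmb, which buffer ATP in muscle, were at least 33.1-fold and 34.4-fold higher. The list holds 4 parvalbumins, calcium buffers, all called higher. Of these pvalb2 was at least 25.4-fold higher, while pvalb4 (0.85 ± 0.10 by the fit) was under background at 6-somites and pvalb3 (0.72 ± 0.14) at both stages. The gene that was lower, ckmt2a, was under background at both stages (change -0.32 ± 0.08).

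Regulators of myogenesis were called higher in 6 of 12 cases and lower in 3, with a median of 0.28 (cyclic loess gave 8 and 3). The differentiation factor myog was at least 5.23-fold higher, from a median of 2.71 (2.55 to 3.52) to 5.74 (5.56 to 5.93). The partner factors mef2ca and mef2d rose by 1.56 ± 0.09 and 1.35 ± 0.09. The early myoblast factor myf5 was lower by the fit, -1.07 ± 0.09, with both stages under background.

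The 21-somites arrays at the same doses give the levels in between. By then myl1 stood at 8.55 to 8.72 (median 8.60) and myhz1.3 at 8.20 to 8.86 (median 8.58), at least 40.8-fold and 39.3-fold above 6-somites, and they rose by 1.24 and 1.96 more to Prim-5. The genes mylz3, tpma and actc1b, above background at all 3 stages, changed by 2.62, 3.10 and 3.33 up to 21-somites and by 2.86, 1.31 and 1.18 after it.

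Of the troponins, the level of tnni2a.4 was still under background there (median 2.57) and at least 20.7-fold higher at Prim-5, and tnnt3a, at a median of 3.39, rose by 4.42 after 21-somites. Parvalbumin pvalb2, at a median of 3.40, rose by 4.63, while pvalb1, pvalb3 and pvalb4 were under background at 21-somites. Myogenin stood at a median of 6.39 and then came down by 0.66 on the log2 scale. The 2 intervals share the 21-somites arrays, so they are set side by side without a test of their difference. They also differ in length, from about 15 to 24 hpf and from about 24 to 30 hpf. Here and below, the paired changes are therefore no measure of pace.

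**Figure D2:**
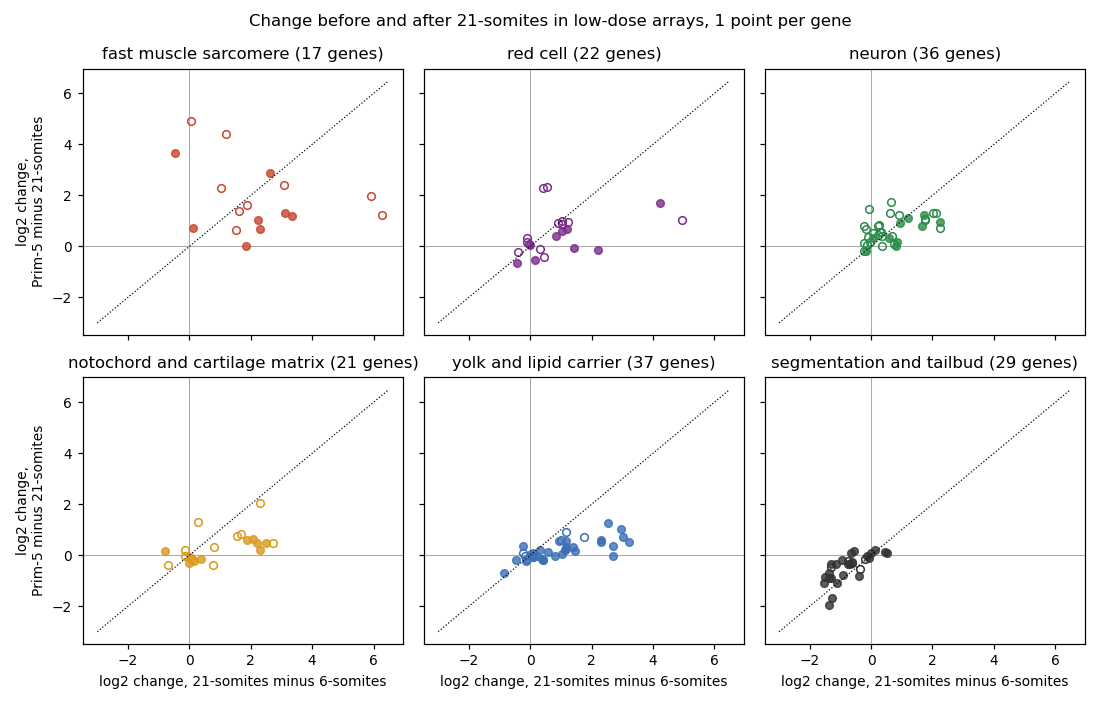
Log2 change from 6-somites to 21-somites (horizontal) against that from 21-somites to Prim-5 (vertical) in the low-dose arrays, 1 point per gene, for 6 gene lists, with a dotted line where both are equal. The intervals differ in length (about 15 to 24 hpf and 24 to 30 hpf), so the line does not mark an equal pace. Open circles are genes under background at 1 or more of the 3 stages, whose position is a fitted value and no measure of timing, and filled circles, such as mylz3 at 2.62 and 2.86, are above it at all 3.

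Of 15 heart genes, 6 were higher and 7 lower (median -0.27). The cardiac myosin gene myh7 was at 1.90 to 2.60 (median 2.25) at 6-somites and 6.63 to 7.11 (median 6.97) at Prim-5, at least 12.7-fold higher. The cardiac light chains cmlc1 and myl7 were at least 17.6-fold and 10.1-fold higher, and troponin T tnnt2a rose by 2.96 ± 0.12. The transcription factors gata5, gata4 and gata6, which act in heart and endoderm precursors, fell by 1.48 ± 0.10, 1.31 ± 0.09 and 1.09 ± 0.11. The factor hand2 fell by 0.87 ± 0.12, from 4.60 to 5.51 (median 5.24) down to 4.19 to 4.57 (median 4.30). The cardiac factors nkx2.5 (-0.10 ± 0.10, adjusted p = 0.408) and tbx5a (-0.27 ± 0.12, adjusted p = 0.0521) did not pass and were under background at both stages.

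Of 22 red cell genes, 15 were higher and 3 lower, with a median of 1.51. The embryonic globin hbae3 was measured at 3.21 to 3.83 (median 3.66) at 6-somites and 9.28 to 9.93 (median 9.46) at Prim-5, a change of 5.92 ± 0.11 (adjusted p = 2.35e-21). Its beta-type partner hbbe3 went from 2.58 to 3.48 (median 2.90) to 8.82 to 9.19 (median 8.96), at least 49.7-fold higher. Enzymes of heme synthesis also rose, cpox by 2.05 ± 0.09, urod by 1.88 ± 0.10, alas2 by 1.67 ± 0.11 and fech by 1.23 ± 0.15.

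The transcription factors of red cells had small changes at low levels. The regulators gata1a (0.23 ± 0.09, adjusted p = 0.0434) and klf1 (0.24 ± 0.10, adjusted p = 0.0471) were under background at both stages, and both calls were lost in several other settings (stage change of gata1a, adjusted p up to 0.127; stage change of klf1, up to 0.129). The blood specification gene tal1 did not pass (0.05 ± 0.14). Another early gene, lmo2, fell by 0.64 ± 0.10, also under background. The anion exchanger slc4a1a and the water channel aqp1a.1, of the red cell membrane, were under background at 6-somites and at 21-somites (median levels of 2.04 and 2.06 there), and at least 2.32-fold and 2.45-fold higher at Prim-5 than at 21-somites. At 21-somites hbbe3 already stood at a median of 7.94, at least 24.1-fold above 6-somites.

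Leukocyte genes were mixed, 5 higher and 4 lower of 17 (median -0.04). The actin bundling gene lcp1 was among the 15 largest fitted falls, from 5.67 to 5.98 (median 5.73) down to 2.91 to 3.47 (median 3.28), a change of -2.56 ± 0.09. Lysozyme, lyz, was at least 3.24-fold higher, and was under background at 6-somites and at 21-somites (median 2.75). The myeloid factor spi1b did not pass between 6-somites and Prim-5 (0.00 ± 0.10). By the fit it changed by 0.38 ± 0.09 up to 21-somites and by -0.38 ± 0.09 after it, from a 6-somites mean of 3.24, just under background. Of these 17 genes, 8 were under background at both stages.

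Among 19 blood vessel genes 8 were higher and 5 lower (median 0.12; cyclic loess gave 9 and 3). The LIM protein gene crip2 rose by 3.08 ± 0.10, from a median of 4.0 (3.79 to 4.32) to 7.06 (6.93 to 7.32). The sphingosine receptor s1pr1 was at least 1.43-fold higher, and the endothelial receptor tie1 was called higher from a level under background at 6-somites (0.74 ± 0.10 by the fit). The vascular growth factor receptor kdrl (0.95 ± 0.11) and its ligand vegfaa (0.33 ± 0.09) were called higher with both stages under background. The factor gata2a fell from 5.77 to 6.04 (median 5.93) down to 3.35 to 3.87 (median 3.54). Its arrays lay far apart, a change of -2.34 ± 0.10 (adjusted p = 4.88e-15).

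Genes of segmentation and the tailbud had the lowest median of the 34 lists. Of 29, 23 were lower, 16 of them by over 2-fold, and 3 were higher, with a median of -1.13. The caudal homeobox gene cdx4, which patterns the posterior body, fell from 8.03 to 8.26 (median 8.17) to 4.73 to 4.98 (median 4.85). That is a change of -3.30 ± 0.08 (adjusted p = 4.75e-19), with no overlap between the stages.

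The mesoderm factors msgn1 and tbx16, which act as cells leave the tailbud to form somites, fell by 2.93 ± 0.14 and 2.63 ± 0.11. The clock gene her7, one of the oscillating genes of segmentation, fell from 4.65 to 5.30 (median 5.19) to 2.56 to 3.00 (median 2.81), and tbx6 fell by 2.23 ± 0.09. The other clock gene her1 was under background at both stages (-0.98 ± 0.09). The retinoic acid degrading enzyme cyp26a1, active in the tailbud, fell by 1.69 ± 0.10. The 3 members that rose were Notch pathway genes that are also used elsewhere in the embryo: the ligand gene dld by 0.59 ± 0.13, nrarpb by 0.57 ± 0.09 and lfng by 0.33 ± 0.09.

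Genes that set the dorsoventral axis and pattern the gastrula fell in 27 of 30 cases (2 higher, median -0.94). The secreted inhibitor szl, of the BMP pathway, was at least 7.49-fold lower, from 5.24 to 5.94 (median 5.71) to 1.32 to 1.97 (median 1.66). The ventral repressors vox and ved fell by 3.07 ± 0.11 and 2.74 ± 0.12. The dorsal BMP antagonist chrd fell by 2.32 ± 0.10, so genes of the dorsal and of the ventral side both fell. The organizer gene gsc was at least 3.31-fold lower and the pluripotency factor pou5f3 at least 1.82-fold. Against the list, the Nodal antagonist lft2 was at least 1.28-fold higher and irx1a rose by 0.59 ± 0.12.

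By 21-somites szl was under background (median 1.76), at least 5.76-fold below its level at 6-somites. The eye field gene six7 was likewise under background at 21-somites (median 1.36), at least 4.90-fold lower. Neither gene gives a measured change after that stage, since both were under background at Prim-5 too. The tailbud genes cdx4 and msgn1, above background at all 3 stages, changed by -1.36 and -1.26 before 21-somites and by -1.95 and -1.67 after it.

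The Hox genes, which give cells their position along the body, were called at shares near those of all genes when changes of any size were counted. Of 42, 8 were higher (19%) and 17 lower (40.5%), beside 23.6% and 34.7% of all genes (cyclic loess gave 11 and 14, quantile normalization 8 and 15), with a median of -0.13, and 12 were under background at both stages. In paralog groups 1 to 4, 5 rose and 5 fell of 13. In groups 5 to 8, 1 rose and 6 fell of 12, and in groups 9 to 13, 2 rose and 6 fell of 17. Among those that fell, hoxb7a was at least 2.07-fold lower, and hoxd9a and hoxc6b changed by -1.49 ± 0.09 and -1.43 ± 0.10. The largest rise was hoxb8a, from 4.12 to 4.34 (median 4.2) to 5.74 to 6.44 (median 5.96).

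**Figure D3:**
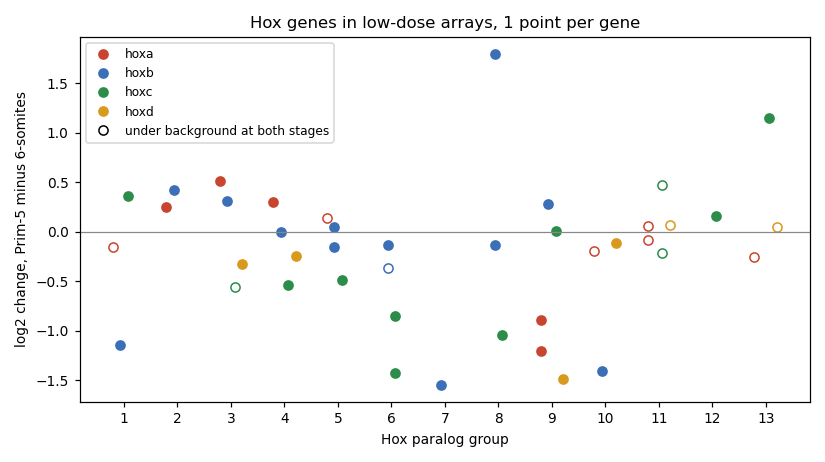
Log2 change from 6-somites to Prim-5 (vertical axis) of 42 Hox genes by paralog group (horizontal axis), coloured by cluster letter, with open circles for genes under background at both stages. Rises and falls occur in all parts of the series, from hoxb7a at a fitted -1.55 to hoxb8a at 1.80.

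Neuronal genes rose in 30 of 36 cases, 18 by over 2-fold, with a median of 0.95. Of these 36 genes, 26 had the dimmer stage under background, and 11 had both stages under it. The synaptic vesicle gene syt4, named by the size of its change, was at 2.41 to 3.04 (median 2.68) at 6-somites and 7.80 to 8.20 (median 8.13) at Prim-5, at least 28.5-fold higher. The complexin cplx2a, which controls vesicle release, was at least 8.19-fold higher. The growth cone gene gap43 rose from 4.34 to 4.89 (median 4.63) to 6.80 to 7.20 (median 6.92), a change of 2.32 ± 0.10. The sodium pump subunit atp1a3a rose by 3.16 ± 0.12.

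The RNA binding gene elavl3, which marks newborn neurons, was already at a median of 7.63 at 6-somites and rose by 0.83 ± 0.11. The GABA synthesis gene gad1b was under background at 6-somites and 21-somites (median 2.14 at the latter) and at least 1.38-fold higher at Prim-5 than at 21-somites. The 2 members that were lower were th (-0.42 ± 0.10, under background at both stages) and isl2a (-0.38 ± 0.12).

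Neural progenitor and glial genes were mixed, 18 higher and 10 lower of 38 (median 0.18; cyclic loess gave 19 and 8, quantile normalization 18 and 13). The radial glia lipid carrier fabp7a rose by 3.56 ± 0.12, and the proneural factor ascl1a was at least 3.34-fold higher. The Hairy-related repressor her3 fell by 1.57 ± 0.13 and the early neural factor zic2b by 1.15 ± 0.14. A dimmer probe set of her3, under background, was called the other way (0.55). The stem cell factor sox2 fell by 0.53 ± 0.10 on its brightest probe set, and another of its 3 probe sets rose by 0.32.

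In the eye list 6 were higher and 6 lower of 20 (median -0.02; cyclic loess gave 7 and 4). The eye field genes six7 and rx3 were at least 6.37-fold and 3.79-fold lower. The lens crystallins crybb1 and cryba4 were at least 1.37-fold and 1.3-fold higher. The eye and midbrain gene mab21l1 was at least 3.30-fold higher, from a median of 1.79 to 5.02.

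Of 17 neural crest and pigment cell genes, 6 were higher and 5 lower (median 0.07; cyclic loess gave 7 and 4). The crest marker crestin rose from 4.15 to 4.84 (median 4.37) to 5.92 to 6.54 (median 6.26). The pigment genes gch2 (pteridine synthesis) and dct (melanin synthesis) were at least 3.24-fold and 1.88-fold higher, and both were under background at 6-somites and 21-somites. The factor snai1b, of migrating crest, fell by 0.90 ± 0.10.

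Matrix genes of the notochord and cartilage rose in 13 of 21 cases, with 3 lower and a median of 1.14. The main notochord collagen col2a1a went from 5.74 to 6.23 (median 6.02) to 8.32 to 8.71 (median 8.48), a change of 2.5 ± 0.10. The matrilin matn4 and the collagen col9a2 were at least 6.74-fold and 8.01-fold higher. The signal shhb was at least 1.58-fold lower, while shha did not pass the test (-0.06 ± 0.09).

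Of 18 genes of fibrillar and basement membrane matrix, 11 were higher and 4 lower (median 0.33). The collagen gene col1a1a was at 2.01 to 2.88 (median 2.09) at 6-somites and 7.86 to 8.15 (median 8.01) at Prim-5, at least 26.9-fold higher. The partner chain col1a2 rose by 4.28 ± 0.09 and periostin postnb was at least 20.4-fold higher. Fibronectin fn1a, which lines somite borders, fell by 1.70 ± 0.11, and the laminin chain lamb1a by 1.3 ± 0.08.

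Of 40 epidermal genes, 13 were higher and 13 lower (32.5% each, beside 23.6% and 34.7% of all genes; median -0.04). Cyclic loess gave 14 and 11. The keratins krt99, krt18a.1 and krt97 fell by 2.03 ± 0.11, 1.58 ± 0.08 and 1.58 ± 0.09 from levels above 8.7 in all 6-somites arrays. The keratins krt4 and krt5 changed by 0.31 ± 0.09 and -0.02 ± 0.10, and the second did not pass. The calcium binding genes icn and icn2 rose by 3.14 ± 0.18 and 2.25 ± 0.09, and s100a10b rose by 2.71 ± 0.10. The mucus gene agr2 was at least 4.16-fold higher.

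Genes of the yolk syncytial layer and of lipid transport rose in 25 of 37 cases, with 4 lower and a median of 1.08. Complement c9 went from 3.13 to 3.37 (median 3.28) to 7.05 to 7.39 (median 7.23), a change of 3.96 ± 0.09. The retinol carrier rbp4 rose by 3.79 ± 0.14, the apolipoprotein apoea by 3.75 ± 0.12 and the fibrinogen chain fga by 3.74 ± 0.13. The transfer protein mttp, which loads lipoproteins, fell by 1.55 ± 0.10. The median fitted change of the list, dim genes included, was 0.95 before 21-somites and 0.15 after.

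Of 27 genes of the endoderm and pronephros, 8 were higher and 16 lower (median -0.29; quantile normalization gave 7 and 17, cyclic loess 8 and 15), and 16 were under background at both stages. The largest fitted fall in the list, -1.55 ± 0.11, was that of hoxb7a, which is also counted among the Hox genes above. The endoderm factor hnf4a and the kidney factor pax8 fell by 1.34 ± 0.11 and 1.22 ± 0.10. The sodium pump subunit atp1a1a.4 was at least 2.56-fold higher.

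**Figure D4:**
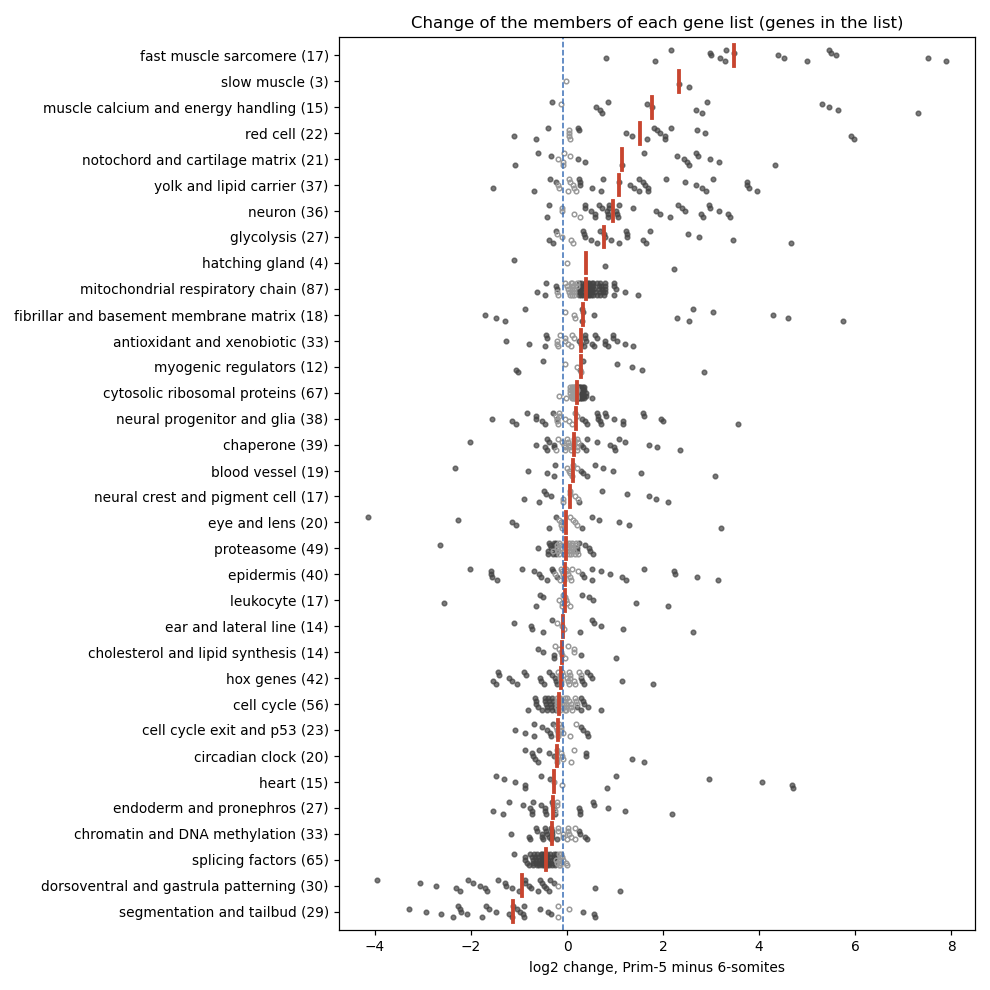
Log2 change from 6-somites to Prim-5 (horizontal axis) of every gene of 34 lists, filled where the test was passed, with a red bar at the list median and a dashed line at the median of all probe sets, -0.095. List medians run from -1.13 for segmentation and tailbud to 3.48 for the fast muscle sarcomere.

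Lists of general cell functions had medians from -0.44 for splicing factors to 0.76 for glycolysis, while single members moved further. Splicing factors were lower in 52 of 65 cases and higher in 0, with a median of -0.44 (44 lower with cyclic loess, 54 with quantile normalization). Means over all probe sets of a gene gave 52 lower and 1 higher. The probe sets of the spliceosome gene prpf8 disagreed, with 2 brighter ones at -0.43 and -0.77 and a dimmer one at 2.63. Of the 1539 genes with several probe sets on the array, 54 were called both ways. The spliceosome factor prpf31 fell from 7.65 to 7.89 (median 7.72) to 6.46 to 6.86 (median 6.63), and snrpd3 fell by 0.84 ± 0.08. The factor srsf3b did not pass (0.00 ± 0.09). The list of chromatin and DNA methylation genes had 18 of 33 lower and 4 higher (median -0.31; cyclic loess gave 15 and 5). It also holds nucleolar genes, several of them among the falls, such as nop58 (-0.80 ± 0.08), fbl (-0.52 ± 0.09) and ncl (-0.52 ± 0.09). Of the DNA methyltransferases, dnmt3bb.2 fell by 1.17 ± 0.09 and dnmt1 rose by 0.37 ± 0.09, while dnmt3ba (-0.08 ± 0.12) and dnmt3bb.3 (-0.19 ± 0.12) did not pass.

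Among 56 cell cycle genes 21 were lower (37.5%) and 7 higher (12.5%), beside 34.7% and 23.6% of all genes (cyclic loess gave 16 and 10), with a median of -0.16. The licensing inhibitor gmnn fell by 0.81 ± 0.10, while cdk2 rose by 0.70 ± 0.12 and pcna by 0.28 ± 0.09. The mitotic kinesin kif20a fell by 0.67 ± 0.08 on its brightest probe set and rose by 1.17 on the other. Of 49 proteasome genes, 14 were lower (28.6%) and 7 higher (14.3%), both under the shares of all genes. Cyclic loess gave 6 and 15, quantile normalization 12 and 7. The activator subunit psme1 fell by 2.64 ± 0.18, and psmc1a rose by 0.55 ± 0.10.

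Energy genes rose. In the mitochondrial respiratory chain 63 of 87 were higher and 5 lower (cyclic loess gave 67 and 3), with a median of 0.40. The succinate dehydrogenase subunit sdha rose from 4.83 to 5.38 (median 5.05) to 6.19 to 6.76 (median 6.57). In glycolysis 20 of 27 were higher and 3 lower (median 0.76, or 0.16 with 50 added on the linear scale). Of these 27 genes, 7 were under background at both stages. The aldolase aldoab rose by 4.67 ± 0.13 and the enolase eno1a was at least 9.24-fold higher, while the aldolase copy aldoaa fell by 0.37 ± 0.09. Among other members bright at 6-somites, gapdh rose by 1.24 ± 0.13, ldhba by 0.50 ± 0.10 and hk1 by 0.33 ± 0.09. The bright pgam1a did not pass (0.13 ± 0.08), so the list did not move as a whole. Cytosolic ribosomal proteins were higher in 34 of 67 cases and lower in 0 (median 0.21), but in 19 with quantile normalization and 50 with cyclic loess.

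The change was also fitted at each dose. At 0.00625 mM alone, 3 arrays against 3, 2578 probe sets were higher and 3475 lower, and at 0.625 mM alone 2615 were higher and 3432 lower. The difference of the stage change between doses passed for 0 of 15502 probe sets (0%), with 741 at an unadjusted p under 0.05, where 5% of the probe sets is 775.1. Since the doses were picked for having almost no dose effect, this count is a description. The smallest adjusted p, 0.127, was that of fgf13a, a fibroblast growth factor family gene, which by the fit changed by 0.92 at 0.00625 mM and 2.07 at 0.625 mM. That difference was 1.15 ± 0.20, with a 95% interval of 0.75 to 1.56, and its level at 6-somites and 0.625 mM was under background. Averaged over stages, 0 probe sets differed between the doses, and the smallest adjusted p was 0.918 (785 had an unadjusted p under 0.05). By the same choice of doses, this is a description as well.

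The controls, which share no array with the low-dose embryos, give the stage change in medium alone. They include the 6-somites array with a yolk gene mean of 4.85. The fit of 36 arrays also holds a 21-somites control with a mean of 5.20. In controls 5640 probe sets passed (36.4%), 2612 higher and 3028 lower, from 3 arrays against 3. Of the 8361 probe sets called in low-dose embryos, 7826 (93.6%) changed in the same direction in controls and 4907 (58.7%) were also called that way, while 9 were called the other way. Of the 1185 called with over 2-fold, 1185 had the same direction and 1181 were called. Over all probe sets the changes correlated at 0.949 (Pearson, where probe sets are not independent replicates). The doses were picked for having almost no dose effect, so this likeness to controls is a description.

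The difference between the low-dose and the control change passed for 0 probe sets (0%). Given how the doses were picked, this count is a description too. Its smallest adjusted p was 0.126, and 1316 probe sets had an unadjusted p under 0.05 (5% is 775.1). Among named genes the smallest p was that of cbln11 (adjusted p = 0.137), which was under background in all these groups. The immediate early gene junbb changed by -0.09 and 0.78. For psme1 the changes were -2.64 and -1.23, a difference of -1.40 (adjusted p = 0.253). Against embryos at 5 mM, the dose that causes vascular lesions per the labels, the difference also passed for 0 probe sets (0%). There the smallest adjusted p was 0.609, and 973 probe sets had an unadjusted p under 0.05. The median standard error of these differences was 0.173, and differences as large as that of psme1 did not pass. For the yolk list gene apoa2 the standard error of the difference from controls was 0.66.

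**Figure D5:**
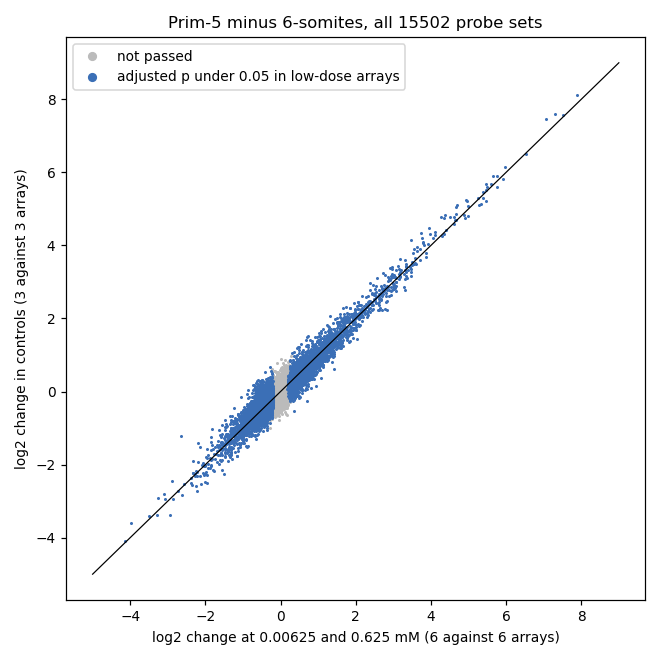
Log2 change from 6-somites to Prim-5 in low-dose embryos (horizontal, 6 against 6 arrays) against that in controls (vertical, 3 against 3 arrays), 1 point per probe set, blue where the low-dose change passed the test, with a line of equality. The points follow the line over the whole range, with a correlation of 0.949, at doses picked for having almost no dose effect.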

How the data were processed

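RNA of pooled whole embryos was amplified with a NuGEN kit, labelled with biotin and hybridised to one-colour Affymetrix arrays, per the labels. The authors deposited one table of log2 values for 15617 probe sets on 36 arrays. The log2 unit was read from the values (0.599 to 11.84 outside control probe sets), and the authors' background correction, probe summary and normalization were steps not given in the sources used here. The 115 manufacturer's control probe sets were left out. Of the rest, 10795 had 1 gene symbol, 135 several and 4572 none. Arrays have no read depth, and their number limits the precision. Scan batches were not examined.

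In R 4.3.3, limma 3.58.1 (lmFit and eBayes, two-sided) fitted stage plus dose to the 12 arrays, with adjustment over all 15502 probe sets. Separate means per stage and dose gave the changes at each dose. A fit of 12 groups on 36 arrays gave the differences from controls and 5 mM, and a fit of 18 arrays the 21-somites intervals. The test was tested on simulated data. No pairing by replicate number was seen. Deviations of same-numbered arrays correlated between -0.219 and 0.148 (median 0.057). Those of other-numbered arrays correlated between -0.189 and 0.187 (median -0.004). Spread between pools is all that the p-values measure.

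The members and gene lists were chosen with earlier results of these data known. Named genes were the 15 largest rises and 15 largest falls without overlap, members of the lists, and the smallest p of each difference. The background of each stage was adopted for the bounds after values were seen. With 1 mean over the 12 arrays instead, 302 of 743 genes had a dimmer stage under background. Alternatives were normalization, an offset, filters, array weights, the variance prior, the replicate block, the arrays fitted and each array left out. Scalings of the list medians were added after seeing the data.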

Additional observations from a re-analysis of the deposited data

Results flagged for a closer look

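Among the 30 named genes, 60 sets of 6 arrays were searched for 1 array far from the other 5, and 3 were found. Chance gives about 1 in 20. For myhz1.3, Prim-5 replicate 2 at 0.625 mM measured 10.29 against 10.51 to 10.60 in the others. For atp2a1, Prim-5 replicate 1 at 0.625 mM measured 9.54 against 9.14 to 9.24. For syt4, Prim-5 replicate 3 at 0.00625 mM measured 7.80 against 8.09 to 8.20. Each gap is small beside the change between stages, and the 3 arrays are different ones.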

How the results depend on the processing

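Leaving out each of the 12 arrays in turn gave 3123 to 3325 higher and 4581 to 4907 lower probe sets between stages, and 807 to 840 and 341 to 372 by over 2-fold. The same ranges were 2222 to 2535, 2638 to 3150, 791 to 849 and 340 to 362 at 0.00625 mM, 2263 to 2460, 2748 to 3126, 832 to 911 and 401 to 439 at 0.625 mM, and 2294 to 2497, 2423 to 2921, 810 to 862 and 330 to 382 in controls. The difference from the control change passed for 0 to 5 probe sets, with 5 when 6-somites control replicate 3 was left out, 1 without Prim-5 replicate 3 at 0.625 mM and 0 without any other. Adding 50 on the linear scale, which shrinks the changes of dim probe sets, left 161 and 38 over 2-fold higher and lower, 157 and 36 at 0.00625 mM, 166 and 40 at 0.625 mM, and 172 and 37 in controls. It also gave 2 differences from controls, and array weights gave 1 difference between doses. The cause of these 2 was not tested. Keeping only the brighter 7751 probe sets gave 2040 higher, 3029 lower and 550 over 2-fold higher. By dose it gave 1664 and 2251 at 0.00625 mM, 1652 higher and 568 over 2-fold higher at 0.625 mM, and 1622 higher in controls, with fewer probe sets tested. Requiring over 2-fold left 831 and 354, and means over the probe sets of 8793 genes gave 2061 and 3181.

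With the replicate number as a block, 3324 were higher and 5030 lower, and the counts over 2-fold were 831 and 354. Of 5150 changes of 237 genes recomputed, 5098 kept their direction and side of the threshold, 19 lost the call (gata1a and klf1), 6 gained it (tbx5a) and 27 changed sign, all in genes that had not passed. The sign changes were krt5 at 0.05 (quantile) and 0.06 (cyclic loess), tpm3 at 0.02 and 0.06 in the same order, spi1b at -0.04 (quantile), shha at 0.03 (cyclic loess) and srsf3b at -0.01 (array weights). With single arrays left out, krt5 ran from -0.09 to 0.03, spi1b from -0.06 to 0.06, srsf3b from -0.03 to 0.04, tal1 from -0.05 to 0.16 and tpm3 from -0.1 to 0.03. List medians near 0 turned for proteasome (0.01 with quantile, 0.08 with cyclic loess) and, with cyclic loess, for leukocyte (0.03), eye and lens (0.07), epidermis (0.06) and ear and lateral line (0.01). These directions depend on the scaling.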

Other observations

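Other lists held changes not described above. Among 39 chaperone genes 13 were higher and 8 lower (cyclic loess gave 18 and 6, quantile normalization 15 and 8; median 0.14). The muscle-enriched chaperone hsp90aa1.1 rose from 7.0 to 7.32 (median 7.16) to 9.40 to 9.64 (median 9.54), a change of 2.36 ± 0.08. The small heat shock gene hspb1 fell from 8.43 to 8.78 (median 8.54) to 6.38 to 6.72 (median 6.58). The disulfide isomerase pdia4 rose by 1.87 ± 0.10.

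Among 33 antioxidant and xenobiotic genes 18 were higher and 5 lower (median 0.28; quantile normalization gave 18 and 6). The peroxiredoxin prdx1 rose by 1.37 ± 0.12 and the quinone reductase nqo1 fell by 1.27 ± 0.11. Of 20 circadian clock genes 4 were higher (20%) and 8 lower (40%), near the 23.6% and 34.7% of all genes. Their median was -0.21, and cyclic loess gave 5 and 7, quantile normalization 4 and 10. The light-responsive clock gene per2 rose by 1.36 ± 0.11, with 0.28 before 21-somites and 1.07 after, and cry2 fell by 0.88 ± 0.09. Time of day at collection was not examined. Of 14 cholesterol and lipid synthesis genes 2 were higher and 4 lower (cyclic loess gave 4 and 2), with fdps up by 1.01 ± 0.13 and elovl5 lower by 0.61 on the log2 scale. Of 14 ear and lateral line genes 6 were higher and 5 lower, eya1 among the first (1.17 ± 0.11) and dlx3b among the second (-1.10 ± 0.09). Of 23 genes of cell cycle exit and p53, 9 were lower (39.1%) and 4 higher (17.4%), and gadd45ga fell by 1.08 ± 0.09. In the hatching gland list 2 of 4 were higher and 1 lower.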
